A study of Danio rerio with 2 samples.

Results

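The distal parts of the zebrafish chromosomes were described from the ATAC-seq peaks that lie within 2 Mb of an end of a chromosome. A peak was taken as an end peak if it finished at or below 2 Mb on the low-coordinate side, or if it started at most 2 Mb before the end of the last peak on the high-coordinate side. Chromosomes 1 to 25 without chromosome 4 were used, which gave 24 chromosomes with 48 ends. The rule used position alone, and no count entered it. It found 20886 end peaks among the 238369 listed peaks of the danRer10 assembly, or 8.76% of the list and 9.23% of the 226382 peaks on these chromosomes. The ends span 96 Mb, which is 7.60% of the length of the chromosomes used, and each chromosome held 727 to 1015 end peaks. The comparison set was the chromosome interior, with 205496 peaks. The 7433 peaks of chromosome 4 and the 4554 peaks of unplaced scaffolds and the mitochondrial genome were left out.

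The study mapped open chromatin in embryos of the line tg(Enh-1_bHLHe40:GFP), in which an enhancer of the bhlhe40 gene drives GFP in the retinal pigment epithelium (RPE), the pigmented sheet behind the neural retina (NR). Both libraries came from GFP-positive cells sorted from pooled whole embryos at 23 h post fertilization (hpf). Reporter, stage and sort were thus the same in the 2 replicates, and these libraries held no second group. The study also made libraries of sorted NR cells, which were not used here, and it counted open regions of NR and RPE together. The list used here is as long as that joint set. A listed peak, also one of low CPM, may therefore have been found in NR cells. Densities and widths thus do not describe RPE sites alone, and the part of NR sites in the list was not tested. RPE replicate 1 held 23996755 counts in peaks and RPE replicate 2 held 19653966. Counts were scaled to these totals as CPM, which is used here as the level of accessibility of a peak. With 2 libraries, a paired permutation test cannot give a two-sided p below 0.5, so no test between ends and interior was made over libraries and their values are given side by side. The list of peaks is shared by both libraries, and therefore a density has no replicate error. Its SD is given over ends or over chromosomes, as a spread between places in the genome. The sort is defined by 1 enhancer, and expression was not measured in these libraries. At least 1 listed peak lay on 7 of the 8 RPE genes with a known position, bhlhe40, mitfa, otx2, tyr, tyrp1b, dct and pmela, whose strongest peaks reached 17.6 to 35.3 CPM in replicate 1 and 16.0 to 33.3 CPM in replicate 2 (tfec lies on chromosome 4). The strongest peaks on 8 keratin, desmosome and plakin genes, which act in epithelia including the RPE, ranged from 1.63 to 47.1 CPM in replicate 1 and from 2.09 to 37.7 CPM in replicate 2. The strongest peak on sox10, a factor of the neural crest, had 24.4 and 21.0 CPM, within the range of the RPE genes. Of the genes of other cells looked up, only crestin besides sox10 had a known position. Like tfec, crestin lies on chromosome 4, which was left out, and it had no peak counted. The study notes that this enhancer is also active in the ciliary margin and in neural crest around the eye, but only after the optic cup has folded. It expects minor contamination at most at 23 hpf. The part of other cells in the sort was not tested here.

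In ATAC-seq, a transposase inserts adapters where DNA is not wrapped in nucleosomes, so that a peak marks an active promoter, an enhancer or another exposed site. The linear chromosomes of vertebrates finish in telomeres, arrays of a short repeat bound by proteins that protect the end. The subtelomeric DNA next to the telomere is often rich in repeats and duplicated segments, where short reads are hard to place and assemblies are often incomplete. In the present assembly the first peak of a low-coordinate end started between position 1 and position 8833 (median 785), so listed peaks reach close to the first base of the assembled chromosomes. The assembly end on the other side was taken as the end of the last peak.

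Peaks were more closely packed near the ends than in the interior. The ends held 217.6 ± 31.5 peaks per Mb (SD over 48 ends), against 176 ± 9.32 peaks per Mb in the interior (SD over 24 chromosomes), a ratio of 1.24. These SDs are not alike, since an interior is far longer than an end. Interior windows of 2 Mb ran from 34 to 294 peaks per Mb. Listed peaks covered 6.44% of the bases of the ends and 5.25% of the bases of the interior. The median gap between neighbouring peaks was 2578 bp in the ends and 3086 bp in the interior. Gaps over 20 kb made up 2.11% of the gaps in the ends and 3.94% of those in the interior, so the ends contained fewer of the long stretches without a peak.

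The excess was concentrated close to the tip. In bins of 100 kb, density was 291 ± 77.2 peaks per Mb in the outermost bin (SD over 48 ends), 273.5 in the next and 254.4 in the third, and it reached 176 peaks per Mb in the last bin before 2 Mb. Zones were then set from this profile, after its values had been seen. The outermost 0.3 Mb held 3931 peaks, or 273 ± 65.5 peaks per Mb, against 176 in the interior (ratio 1.55). The zone of 0.3 to 1 Mb held 7597 peaks at 226.1 per Mb (ratio 1.28), and the zone of 1 to 2 Mb held 9358 peaks at 195 per Mb (ratio 1.11). Further inside, density was 174 peaks per Mb at 2 to 5 Mb, 166.5 at 5 to 10 Mb and 168.2 at 10 to 20 Mb. Beyond 20 Mb it was 196.5 peaks per Mb, close to the value at 1 to 2 Mb. The 2 Mb limit does not mark a step. The 845 peaks just inside it, at 1.9 to 2 Mb, had a density of 176 per Mb and median CPM of 1.42 in replicate 1 and 1.53 in replicate 2, and the 856 peaks just outside it, at 2 to 2.1 Mb, had a density of 178.3 per Mb and median CPM of 1.67 and 1.73.

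**Figure D1:**
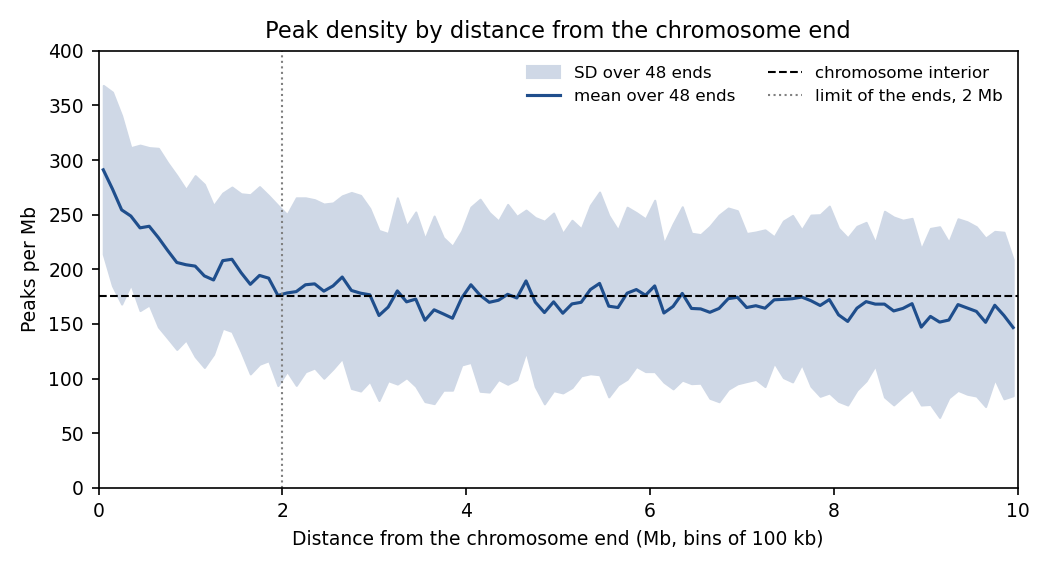
Peaks per Mb (vertical axis) by distance from the chromosome end in Mb (horizontal axis), in bins of 100 kb. The line is the mean and the band the SD over 48 ends, the dashed line is the interior at 176 peaks per Mb, and the dotted line is the 2 Mb limit. The mean starts at 291 peaks per Mb and reaches the interior level by 2 Mb.

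All 24 chromosomes had denser ends than interior when their ends were pooled, with ratios of 1.01 to 1.495 and a median of 1.22. Taken singly, 43 of the 48 ends were denser than the interior of their own chromosome. The interior was also cut into 571 windows of 2 Mb, whose density ran from 34 to 294 peaks per Mb with a median of 177.5 and an upper quartile of 203. Of the ends, 43 exceeded this median and 35 exceeded the upper quartile, 2 fell below the lower quartile of 150.75, and none exceeded the densest interior window. Most ends therefore lay in the upper part of the interior range and not beyond it. The same was true of single bins of 100 kb, where the outermost bins had a median of 300 peaks per Mb (range 80 to 480), against a median of 170 and a maximum of 510 over 11663 interior bins. Of the 48 outermost bins, 45 exceeded the interior median and 36 exceeded its upper quartile of 230.

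The densest end was the high-coordinate end of chromosome 11, with 272 peaks per Mb against 185.4 in the interior of that chromosome. It was followed by the low-coordinate ends of chromosome 6 with 268.5, chromosome 19 with 254, chromosome 24 with 253 and chromosome 10 with 251.5 peaks per Mb. Density also differed within a dense end. Chromosome 6 and chromosome 10 each held 363.3 peaks per Mb in the outermost 0.3 Mb of these ends, while the outermost 0.3 Mb of the high-coordinate end of chromosome 11 held 270.

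The sparsest end was the low-coordinate end of chromosome 3, with 126.5 peaks per Mb against 169.8 in its interior. The low-coordinate end of chromosome 7 held 141.5 against 184.7, the high-coordinate end of chromosome 1 held 154 against 164.9, and the low-coordinate end of chromosome 8 held 161.5 against 170.1. The high-coordinate end of chromosome 13, at 180 against 190.1 peaks per Mb, was the other end below its interior. The high-coordinate end of chromosome 14, at 175.5 against 167.6 peaks per Mb, was the fifth sparsest end but lay above its interior. In several sparse ends the peaks were missing in blocks. The longest gap was 181 kb in the low-coordinate end of chromosome 7, where it began at chr7:1819022 and reached the 2 Mb limit. It was 161.6 kb in the high-coordinate end of chromosome 1 (chr1:57413382-57574978) and 109.4 kb in the low-coordinate end of chromosome 3 (chr3:1778433-1887849). The median of the longest gap over all ends was 45.5 kb.

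The outermost 0.3 Mb was denser than the interior in 45 of 48 ends. The exceptions were the high-coordinate ends of chromosome 20, with 83.3 peaks per Mb, and of chromosome 2, with 110, and the low-coordinate end of chromosome 7, with 116.7. The high-coordinate end of chromosome 13 was sparse over 2 Mb but held 353.3 peaks per Mb in its outermost 0.3 Mb, so the tip and the rest of an end did not always go together.

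**Figure D2:**
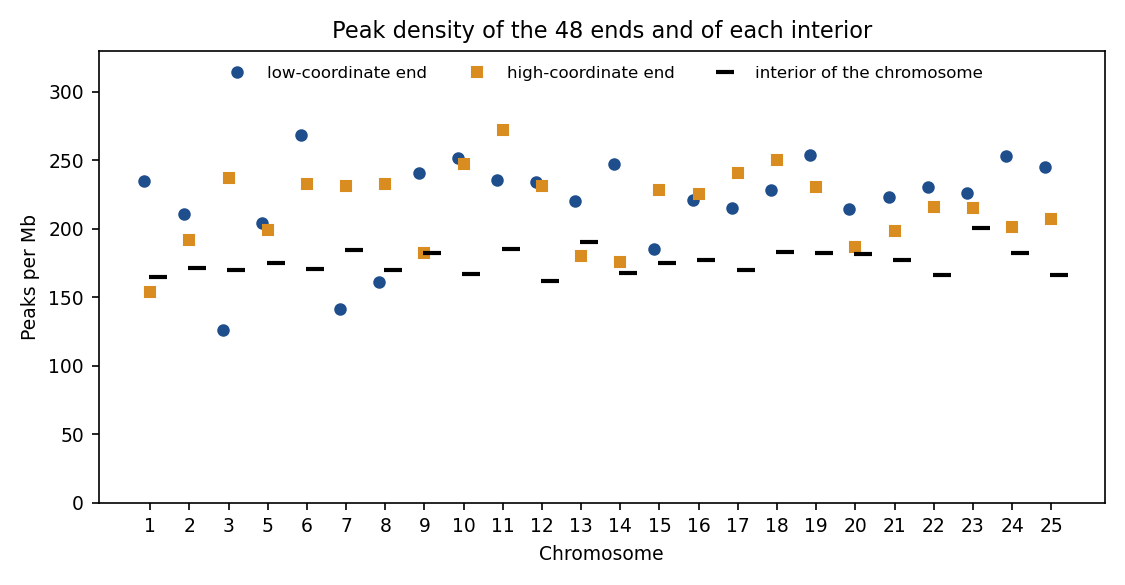
Peaks per Mb (vertical axis) of the low-coordinate end (circles) and the high-coordinate end (squares) of each of 24 chromosomes (horizontal axis), with the interior of the same chromosome as a bar. Of 48 ends, 43 lie above their own interior, and the low-coordinate ends of chromosomes 3 and 7 lie farthest below it.

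In mean density, the ends on the 2 sides of the assembly differed by less than the spread between chromosomes, and no test was made. The low-coordinate ends held 219.8 ± 35.0 and the high-coordinate ends 215.4 ± 28.0 peaks per Mb (SD, n = 24 each). The difference within a chromosome, low minus high, was 4.42 ± 48.5 peaks per Mb and ran from -110.5 to 81, and the low-coordinate end was the denser in 16 of 24 chromosomes. In the outermost 0.3 Mb the values were 277.2 ± 61.4 and 268.75 ± 70.3 peaks per Mb. The median CPM of an end was 2.01 ± 0.411 on the low-coordinate side and 1.83 ± 0.344 on the high-coordinate side. It was higher on the low-coordinate side in 18 of 24 chromosomes, with a difference of 0.18 ± 0.495 CPM. Over all peaks of the outermost 0.3 Mb, the low-coordinate side had a median of 2.88 CPM in replicate 1 and 2.85 CPM in replicate 2. The high-coordinate side had 2.29 and 2.34 CPM there, lower in both libraries. Spearman's rho between the densities of the low- and high-coordinate ends was -0.050 over 24 chromosomes. It was 0.0022 between the ends and the interior and -0.54 between the density of the ends and the length of the chromosome. These correlations are descriptions over chromosomes that share 1 list of peaks. Over 24 chromosomes, a value near 0 does not show that a relation is absent.

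End peaks were similar in width to interior peaks. The median width was 257 bp in the ends (quartiles 151 and 378) and 263 bp in the interior (158 and 379). Peaks of exactly 100 bp made up 5.96% of the end peaks and 6.05% of the interior peaks. The widest class differed more, with 152 end peaks of 1 kb or more (0.728%) against 1058 in the interior (0.515%). Of these wide end peaks, 48 lay in the outermost 0.3 Mb, where they made up 1.22% of the peaks.

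The typical end peak was about as accessible as the typical interior peak. The median was 1.83 CPM in replicate 1 and 1.98 CPM in replicate 2 for end peaks, against 1.79 and 1.98 CPM for interior peaks, which gave a ratio of 1.02 in replicate 1 and of 1 in replicate 2. Mean CPM, which follows the strongest peaks, was 4.48 and 4.40 in the ends against 4.17 and 4.15 in the interior, a ratio of 1.07 ± 0.011 (SD, n = 2 libraries). Peaks with fewer than 10 counts in both libraries made up 7.83% of the end peaks and 7.49% of the interior peaks. The peak at the middle of the distribution thus differed little, while the ratio of the means lay above 1 in both libraries. With more peaks per Mb and a higher mean CPM per peak, the summed accessibility was higher in the ends, at 975.3 and 957.9 CPM per Mb against 733 and 731 in the interior (ratio 1.32 ± 0.014). End peaks took 9.36% of all counts in replicate 1 (exact Clopper-Pearson 95% interval 9.35 to 9.37) and 9.20% in replicate 2 (9.18 to 9.21). These intervals cover counting error only. The shares are of the whole list, chromosome 4 and scaffolds included. Of the counts on the chromosomes used, the mean share of the 2 libraries was 9.79%, on 7.60% of their length.

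Accessibility also changed with distance from the tip. The median was 2.63 CPM in replicate 1 and 2.59 CPM in replicate 2 in the outermost 0.3 Mb, 1.83 and 1.98 CPM at 0.3 to 1 Mb, and 1.58 and 1.78 CPM at 1 to 2 Mb, against 1.79 and 1.98 CPM in the interior. The outermost peaks were therefore 1.47 and 1.31 times the interior, and peaks at 1 to 2 Mb were 0.884 and 0.897 times the interior. Both libraries gave the same order of the zones within 2 Mb. Further inside, the median was 1.58 CPM in replicate 1 and 1.73 CPM in replicate 2 at 2 to 5 Mb, and 1.63 and 1.83 CPM at 5 to 10 Mb. It was 1.75 and 1.98 CPM at 10 to 20 Mb and 2.00 and 2.24 CPM beyond 20 Mb. The lower level at 1 to 2 Mb was thus shared by the zones next to it and was not particular to the ends. Calculated per kb of peak width, the ratio in the outermost 0.3 Mb was 1.48 and 1.31, much as without this correction. The outermost 0.3 Mb held 2.23% of the counts of replicate 1 and 2.13% of those of replicate 2 over the whole list. It spans 1.14% of the length of the chromosomes used. Its summed accessibility was 1548 and 1479 CPM per Mb, which is 2.11 and 2.02 times the interior.

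**Figure D3:**
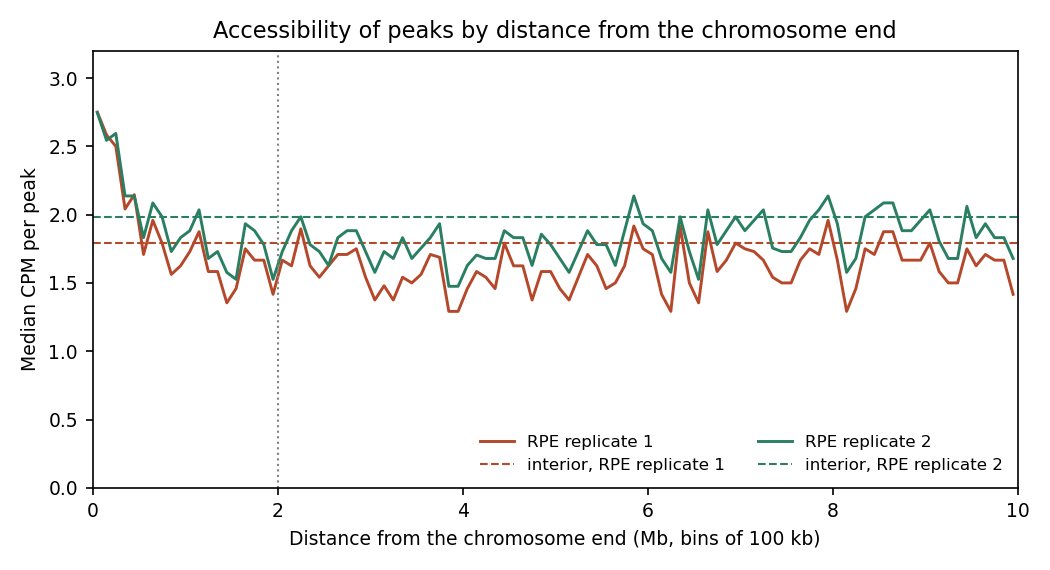
Median CPM per peak (vertical axis) by distance from the chromosome end in Mb (horizontal axis, bins of 100 kb) in RPE replicate 1 and RPE replicate 2, with the interior median of each library as a dashed line and the 2 Mb limit dotted. Both libraries start above their interior level of 1.79 and 1.98 CPM and lie near or below it from about 1 Mb inwards.

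The gain in accessibility at the tips was less general than the gain in density. Over the whole 2 Mb, the median CPM exceeded that of the own interior in 16 of 48 ends in both libraries and was below it in 26 ends in both. In the outermost 0.3 Mb it exceeded the interior in 36 ends in replicate 1, in 35 in replicate 2 and in 32 in both. The highest median over 2 Mb was 3.05 CPM, in the low-coordinate end of chromosome 22, followed by 2.76 CPM in the high-coordinate end of chromosome 17 and 2.56 CPM in the low-coordinate end of chromosome 10. The lowest was 1.16 CPM in the low-coordinate end of chromosome 7, with 1.42 CPM each in the high-coordinate end of chromosome 2 and the low-coordinate end of chromosome 8. Denser ends tended to hold the more accessible peaks, with a Spearman's rho of 0.57 between density and median CPM over 48 ends, a description of ends that come from the same 2 libraries.

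Strong peaks were enriched most at the tips. Listed peaks were split at the 10th, 50th and 90th percentile of mean CPM (0.393, 1.89 and 10.5 CPM). In the outermost 0.3 Mb, the highest 10% reached 2.34 times their interior density, those between the 50th and 90th percentile 1.70 times, those between the 10th and 50th percentile 1.34 times and the lowest 10% only 1.01 times. The highest 10% numbered 586 there, or 14.9% of the outermost peaks against 9.88% of the interior peaks. The order was different at 1 to 2 Mb, where the ratio was 1.06 for the highest 10% and 1.33 for the lowest 10%. At 0.3 to 1 Mb the ratios were 1.49 and 1.34. Within the ends, the density of weak peaks was thus raised from 0.3 to 2 Mb but not at the tip, and that of strong peaks mostly within 1 Mb. These classes were not computed beyond 2 Mb. Peaks with fewer than 10 counts in both libraries made up 9.10% at 1 to 2 Mb, 9.19% at 2 to 5 Mb and 8.54% at 5 to 10 Mb. The interior as a whole had 7.49%, so the larger share of weak peaks was not particular to the ends.

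**Figure D4:**
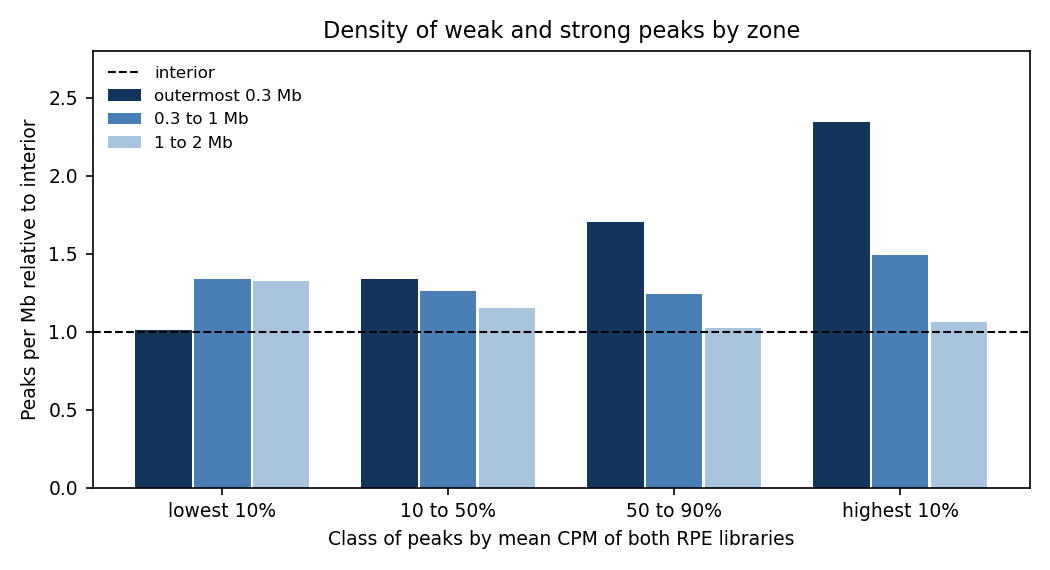
Peaks per Mb relative to the interior (vertical axis, linear, with the interior at 1 as a dashed line) for 4 classes of peaks by mean CPM of both RPE libraries (horizontal axis), in the outermost 0.3 Mb, at 0.3 to 1 Mb and at 1 to 2 Mb. In the highest class the bars fall with distance, 2.34, 1.49 and 1.06, and in the lowest class the outermost bar is at 1.01.

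The end peaks included some of the strongest of the genome. On the chromosomes used, end peaks made up 3 of the top 10 by mean CPM, 13 of the 99 that are among the top 100 of the whole list, and 96 of the 979 among its top 1000. These are 13.1% and 9.81%, against the 9.23% of all peaks on these chromosomes that are end peaks. The strongest end peak, chr5:826080-826676 (597 bp), had 331 CPM in replicate 1 and 502 CPM in replicate 2. It lies on zgc:158463, a gene known in the study's list by a clone name only. Its counts were 7948 and 9870, so it was lower in replicate 1 relative to depth (log2 ratio -0.60, exact binomial test with Benjamini-Hochberg adjustment, adjusted p = 2.55e-164). Its 2 neighbours with at least 50 counts within 50 kb had a median of 12.3 CPM and a median log2 ratio of -0.0043. So few neighbours cannot show whether the surrounding chromatin shared the imbalance.

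The second, chr17:53292552-53292954 (403 bp), lies 0.0477 Mb from the high-coordinate end and had 77.2 CPM in replicate 1 and 115 CPM in replicate 2 (log2 ratio -0.58, exact binomial test, adjusted p = 1.52e-33). Its 22 neighbours had a median log2 ratio of -0.09, so this peak stood apart from its neighbours. Both peaks were short for their level, at 698 and 239 CPM per kb. The other 8 of the 10 strongest end peaks were 839 to 1761 bp long and had 38.2 to 81.9 CPM per kb.

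The next peak, chr8:1200332-1201657, had 96.4 CPM in replicate 1 and 92.3 CPM in replicate 2. On the same end, chr8:159755-160741 had 79.0 and 72.5 CPM. These strong peaks lie in an end that was sparse and had a low median CPM, so single strong sites did not follow the level of the end around them. chr24:41356755-41357593 had 70.3 CPM in replicate 1 and 67.1 in replicate 2. chr10:44526328-44528088 had 66.8 and 67.7 CPM, and chr10:45498653-45499590 had 65.8 and 65.6 CPM. Both lie on the high-coordinate end of chromosome 10. The last of the 10, chr23:45020435-45021870 had 63.5 and 67.0 CPM. With scaling to total counts, none of these 6 differed between the libraries in the exact binomial test (adjusted p = 0.0816 to 1). Over the whole list, 13.3% of the peaks differed, and so few peaks cannot show a departure from that share. Under TMM or DESeq2 factors, the peaks on chromosomes 8 and 24 became higher in replicate 1. The remaining 2 of the 10 strongest end peaks were higher in replicate 1 with scaling to total counts. chr17:1610290-1611305 had 85.0 CPM in replicate 1 and 65.8 in replicate 2 (adjusted p = 5.93e-10), and chr2:56368-57730 had 76.7 and 59.7 CPM (adjusted p = 1.25e-08).

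The widest end peaks were not the strongest. chr18:604058-606077, at 2020 bp, had 46.9 CPM in replicate 1 and 39.4 in replicate 2. The second widest was the 1761 bp peak on chromosome 10 given above, and the third, chr19:48357314-48359038, at 1725 bp, had 55.1 and 42.7 CPM. Only the peak on chromosome 10 was also among the 10 strongest end peaks.

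The very last peak before the assembly end was looked at in 6 of the 48 ends. In the 3 densest ends, chr11:45106090-45106370 had 0.79 CPM in replicate 1 and 1.07 in replicate 2, chr6:1361-1572 had 0.88 and 0.25 CPM, and chr19:176-347 had 1.38 and 1.43 CPM. All 3 lay below the median of the end peaks in both libraries. In the 3 sparsest ends, chr1:58869667-58869776 had 35 and 26 counts, chr7:8833-9115 had 29 and 42 counts, and chr3:344-751 had 95 and 85 counts (3.96 and 4.32 CPM), and the peak on chromosome 3 alone lay above that median in both libraries. None of these 6 differed between the libraries (exact binomial test, adjusted p = 0.0713 to 1), against 13.3% of all peaks that differed. So few peaks cannot show a departure from that share. The first peak of chromosome 7 had no neighbour with at least 50 counts within 50 kb, whereas each of the other 5 had at least 9.

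Because both libraries are of 1 group, the comparison between them shows how reproducible the end peaks were. The count of each peak in replicate 1 was set against the share of replicate 1 in all counts, with an exact two-sided binomial test and Benjamini-Hochberg adjustment over 238310 peaks with any count. It compares these libraries and no conditions. Over the whole list, 13.3% of the peaks differed, 5.09% with a higher value in replicate 1 and 8.21% with a higher value in replicate 2. Of 20882 end peaks tested, 2603 differed (12.5%), 1186 higher in replicate 1 (5.68%) and 1417 higher in replicate 2 (6.79%). In the interior, 13.4% differed. The share of end peaks that differed was thus close to that of all peaks. The SD of the log2 ratio was also similar, at 0.764 in the ends and 0.781 in the interior.

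The direction of the difference shifted towards the tip. Among the end peaks that differed, 45.6% were higher in replicate 1, against 37.5% in the interior, and in the outermost 0.3 Mb 304 of 536 (56.7%) were. This split depends on the scaling of the libraries, because it was 64.0% for end peaks against 56.4% for all peaks with TMM factors and 64.6% against 56.9% with DESeq2 size factors. End peaks stood above all peaks under each of these scalings. On the log2 scale, the median of replicate 1 over replicate 2 was -0.05 in the ends, 0.02 in the outermost 0.3 Mb and -0.10 in the interior. This ratio rose with the summed count of a peak, and strong peaks were more frequent at the tips. Within classes of like summed count, the ratio in the outermost 0.3 Mb and in the interior was -0.21 and -0.41 for 1 to 49 counts, -0.05 and -0.18 for 50 to 99, 0.03 and -0.08 for 100 and above but under 200, and 0.11 and 0.06 for 200 or more. The outermost peaks lay above the interior in each class, by less in the classes with more counts.

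**Figure D5:**
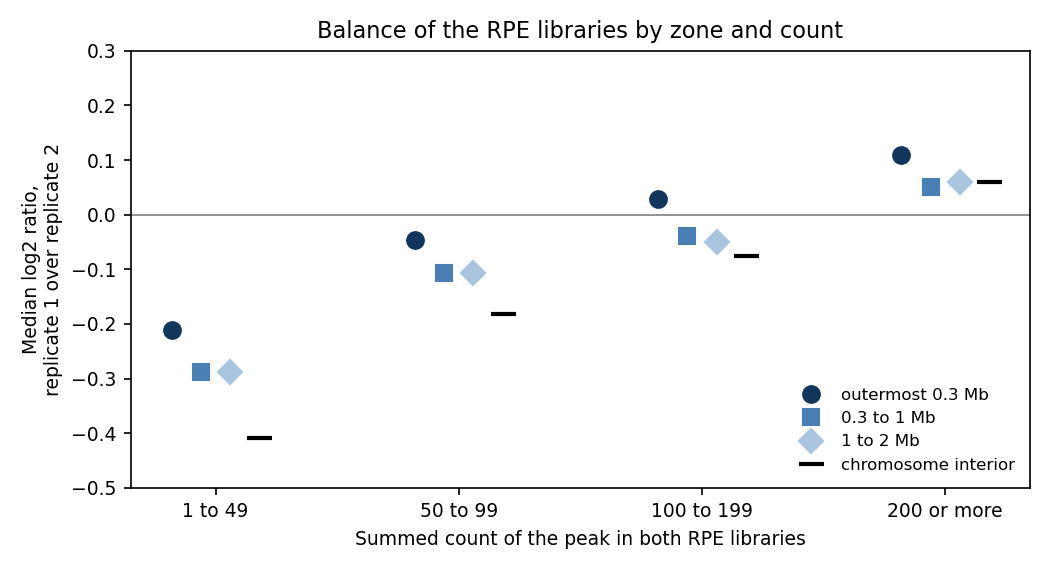
Median log2 ratio of RPE replicate 1 to RPE replicate 2 in CPM (vertical axis) for peaks in 4 classes of summed count (horizontal axis), in the outermost 0.3 Mb, at 0.3 to 1 Mb, at 1 to 2 Mb and in the interior. The outermost points lie above the interior in each class, from -0.21 against -0.41 in the lowest class to 0.11 against 0.06 in the highest.

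Among end peaks with at least 50 counts, the largest ratio belonged to chr22:38873575-38873839, with 52 counts in replicate 1 and 8 in replicate 2 (log2 ratio 2.34, adjusted p = 3.85e-05 in the exact binomial test). chr1:5945-6265, the first peak of chromosome 1, had 73 and 15 counts (1.96), and chr13:197965-198195 had 57 and 13 (1.80). At the other side, chr3:61742014-61742256 had 10 counts in replicate 1 and 46 in replicate 2 (-2.43), chr11:44954308-44954651 had 12 and 49 (-2.27) and chr1:584773-585054 had 15 and 60 (-2.25). None of the 6 had more than 73 counts in either library, and the median ratio of the neighbours of each lay between -0.06 and 0.20. They were single sites that differed, not stretches of an end.

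Genes of the distal chromosomes were named from a table of the study that lists loci of genes compared between NR and RPE at 23 hpf. The study describes its gene table as one of differentially expressed genes. The genes named here may therefore be preselected for a difference in expression. They should not be read as a general sample of genes near the ends. It was held in part, and a locus may span several genes, so that overlap does not assign a peak to a gene. Of 1999 genes with a position, 116 lie wholly in an end and 108 of them were overlapped by an end peak. In all, 878 end peaks overlapped such a gene. Of the genes chosen as markers, 8 of 9 of the RPE list had a position and none lies in an end. The pigment gene tyrp1a, a paralogue of tyrp1b that is on no list and was chosen after its values were seen, does lie in an end, on the high-coordinate side of chromosome 7, where its 3 peaks had 18.7 CPM in replicate 1 and 18.0 CPM in replicate 2. No gene of the NR list had a position. Of the keratin and desmosome list, 8 of 9 had a position, and 1, dspa, lies in an end.

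The 25 genes with the highest summed CPM of their end peaks are given by their roles. The locus listed under pfn1, which encodes profilin, a protein that binds actin monomers, held 106 end peaks on chromosome 23 with 680 CPM in replicate 1 and 657 CPM in replicate 2. Its strongest peak reached only 48.5 and 40.9 CPM, and its sum came from the number of its peaks. By contrast, zgc:158463 had 1 peak only. The locus of adssl1, an enzyme of adenine nucleotide synthesis, held 67 peaks with 281 and 282 CPM. The atp1a1a.3 and atp1a1a.4 genes, which encode alpha subunits of the sodium pump, share 1 locus of 33 peaks with 163.5 and 149.5 CPM. The locus of filip1l held 15 peaks with 155 and 142 CPM, and that of wdr1, an actin disassembly factor, held 4 peaks with 62.7 and 53.0 CPM.

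Several regulators of transcription were among the 25 genes with the highest sums. The locus listed under irx3b, a homeobox factor of the Iroquois family, held 49 peaks with 236 CPM in replicate 1 and 244 in replicate 2. These peaks run from chr25:35900903 to chr25:36105253, and which of them belong to irx3b was not tested. The locus listed under hoxd4a, a Hox factor of axial patterning, held 13 peaks with 87.3 CPM in replicate 1 and 68.1 in replicate 2. They run from chr9:1936925 to chr9:1957841. Of the 13, 5 differed, all higher in replicate 1 in the exact binomial test. Of all peaks, 13.3% differed and 5.09% were higher in replicate 1. The peaks of the ets2 gene, an ETS factor, begin 0.188 Mb from the low-coordinate end of chromosome 10, and all 5 together had 59.1 and 54.1 CPM. Most of this came from chr10:188282-188781, with 41.3 and 37.5 CPM. The nfe2l2a gene, a factor of the oxidative stress response, had 9 peaks with 56.9 and 52.5 CPM, of which 3 differed, again all higher in replicate 1. The tob1b gene, an inhibitor of proliferation, had 2 peaks with 68.3 and 63.3 CPM, of which 1 carried 60.2 and 54.9. The sums of the 2 libraries were farther apart for hoxd4a than for irx3b, ets2, nfe2l2a and tob1b.

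Other genes of this rank act in secretion, in the matrix and at junctions. The rab27a and rab27b genes encode small GTPases that carry secretory organelles, and mammalian Rab27a is known for the transport of melanosomes. The rab27a locus on chromosome 18 had 16 peaks with 75.7 CPM in replicate 1 and 74.6 CPM in replicate 2, and the rab27b locus on chromosome 21 had 14 peaks with 84.9 and 83.6 CPM. The peaks of the col2a1b gene, which encodes a chain of type II collagen, begin 0.0456 Mb from the low-coordinate end of chromosome 11. Its 26 peaks had 157 CPM in replicate 1 and 125 CPM in replicate 2, and 6 of the 26 differed, all higher in replicate 1 in the exact binomial test (5.09% of all peaks were). In some other loci the differing peaks were split, with 9 higher in replicate 1 and 7 higher in replicate 2 of 106 in pfn1, 3 and 2 of 15 in filip1l, and 5 and 3 of 21 in PXDN. The split was 3 and 2 of 33 in the atp1a1a.3 and atp1a1a.4 locus, and 1 and 1 of 14 in cant1b. It leaned to replicate 2 in adssl1, with 3 and 5 of 67, and in irx3b, with 1 and 2 of 49. The same held for rab27a, with 1 and 2 of 16, and rab27b, with 1 and 2 of 14. In further loci all were higher in replicate 1, as for 3 of 24 peaks in pdlim5b, 3 of 14 in quo, 2 of 9 in nuak2 and 2 of 8 in ubald2. In jam2a and ddit4 the only differing peak was higher in replicate 2. Of all peaks, 13.3% differed, 5.09% higher in replicate 1 and 8.21% higher in replicate 2. The PXDN locus, named for peroxidasin, a peroxidase of the extracellular matrix, had 21 peaks with 127 and 111 CPM. The jam2a gene, a junctional adhesion molecule, had 6 peaks with 56.9 and 57.6 CPM. The cant1b gene, a nucleotidase, had 14 peaks with 123 and 124 CPM.

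Of the remaining genes, ddit4 owed its rank almost wholly to 1 strong peak. The ddit4 gene, a stress-induced inhibitor of growth signalling through mTOR, had 66.9 CPM in replicate 1 and 71.3 in replicate 2 over 2 peaks, with 64.6 and 65.6 CPM in 1 of them. The ubald2 gene had 144 and 121 CPM over 8 peaks, with 56.3 and 54.0 CPM in the strongest. The arrdc3b gene, of the arrestin-domain family, had 80.3 and 76.0 CPM over 3 peaks. The nuak2 gene, a kinase related to AMPK, had 105 and 88.8 CPM over 9 peaks, and pdlim5b, an actin-associated adaptor, had 97.9 and 89.2 CPM over 24 peaks. The selk locus held 9 peaks with 57.8 and 61.2 CPM and the quo locus held 14 peaks with 64.5 and 49.05 CPM.

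A further 4 genes are described because of their roles and were chosen after their values had been seen. By summed CPM they rank from 33 to 70, and genes of other roles lie between them. The muscle genes smyhc1, with 33.9 CPM in replicate 1 and 39.1 in replicate 2, and smyd1b, with 26.6 and 30.6, are examples. The gpr143 gene, a receptor of the melanosome that is mutated in human ocular albinism, had 8 end peaks on chromosome 9 with 24.8 CPM in replicate 1 and 31.3 CPM in replicate 2. Its strongest peak, chr9:55466390-55467131, had 20.4 and 23.2 CPM. Of the 8, 2 differed, both higher in replicate 2 (exact binomial test), against 13.3% of all peaks that differed and 8.21% higher in replicate 2. They had 34 and 53 counts and 3 and 16 counts in replicates 1 and 2. The dspa gene, which encodes desmoplakin, the plaque protein of desmosomes, had 6 end peaks on chromosome 2 with 16.2 and 17.7 CPM. The strongest was chr2:1767433-1768131 with 6.001 and 6.97 CPM, and chr2:1808238-1808400 was the only one to differ, with 2 and 18 counts (adjusted p = 0.00213). These values place dspa below the genes ranked above. The sox9a gene, a SOX factor of cartilage and neural crest, had 3 end peaks with 48.4 CPM in replicate 1 and 41.8 CPM in replicate 2, and chr12:1930610-1931928, a peak of 1319 bp, carried 37.8 and 33.7 CPM of them. The klf4 gene, a zinc finger factor of epithelial differentiation, had 7 end peaks with 43.5 and 44.6 CPM, of which the strongest had 29.5 and 31.2 CPM.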

How the data were processed

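Open chromatin was measured by ATAC-seq in 2 libraries of sorted RPE cells at 23 hpf. Per the study's methods, sorted cells were tagmented, reads were mapped to danRer10 with Bowtie2, duplicates were removed, read starts were shifted to the site of transposase binding and short inserts were kept. MACS2 is named in the submitters' processing notes without its role. Whether peaks were called per library or on pooled libraries, how the NR libraries entered the list, and what was counted, are not given in the sources used here. The deposited values are raw counts per peak over 1 shared list, not normalized by the authors. Removal of duplicates by position lowers the strongest peaks most, and reads from repeats, which cannot be placed with certainty, may be lost or misplaced.

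CPM was computed from the total count in peaks. Distances ran from coordinate 0 and from the end of the last peak, since no danRer10 genome was used. The log2 ratio added 0.5 counts to each library. Python 3.11.15, pandas 2.3.3, scipy 1.17.1 and, for scaling factors only, edgeR 4.0.16 and DESeq2 1.42.0 in R 4.3.3 were used. The binomial test was tested on simulated data. It assumes counting error alone, so it compares libraries and overstates certainty where a pair was counted at each of its ends. Whether the replicates came from separate batches of embryos is not given in the labels. No fit dropped or imputed a sample.

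Peaks were named by rule: the 10 with the highest mean CPM, the 3 largest and 3 smallest ratios with at least 50 counts, the widest 3, and the outermost peaks of the 3 densest and 3 sparsest ends. Ends were named as the 5 densest and 5 sparsest and the 3 with the highest and the lowest median CPM, and genes as the 25 in the ends with the highest summed CPM. Members, lists and rules were chosen with earlier results of these data known. A list of genes of other cells (sox10, crestin, myod1, gata1a, kdrl) had 2 of 5 genes with a position and none in an end.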

Additional observations from a re-analysis of the deposited data

How the results depend on the processing

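No paired analysis was possible because the libraries form 1 group. The ratio of end to interior density, 1.24, was 1.36 with ends of 1 Mb, 1.09 with 5 Mb, 1.26 with chromosome 4 and 1.21 against an interior beyond 10 Mb. The median CPM ratio, 1.01, was 1.12 with 1 Mb, 0.915 with 5 Mb and 1.06 with at least 10 counts in each library, and the mean CPM ratio, 1.07, was 1.17 with 1 Mb and 0.987, a reversal, with 5 Mb. The share of counts, 9.28%, was 9.79% of the counts on the chromosomes used. The share of end peaks that differed, 12.5%, was 14.1% with TMM factors, 14.2% with DESeq2 size factors, 14.9% with a summed count of at least 50 and 10.2% with the trend over summed count removed. Over all peaks the share, 13.3%, was 14.1%, 14.3%, 15.5% and 10.4% under these settings, close to the end peaks each time. The share of these higher in replicate 1, 45.6%, was 64.0%, 64.6%, 54.8% and 50.6% under these settings, 52.2% with at least 10 counts in each, 47.9% with ends of 1 Mb and 41.5% with 5 Mb. The outermost density ratio, 1.55, was 1.65 both for peaks of at least 10 counts in each library and for 0.1 Mb, and 1.48 for 0.5 Mb. The outermost median CPM ratio, 1.39, was 1.52 in low-coordinate and 1.23 in high-coordinate ends. The removed trend and all alternatives for the outermost zone were chosen after seeing the data. The cause of these shifts was not tested, beyond the other windows holding other peaks. Leaving out each replicate in turn gave 1 to 1.02 for the median CPM ratio, 1.06 to 1.08 for the mean, 9.20% to 9.36% for the share of counts and 1.31 to 1.47 for the outermost CPM ratio. Width differences of -8 to -4 bp and low minus high densities of -0.025 to 6.29 per Mb stayed within the spread. Of 36 alternatives for named peaks, 30 kept the call. In 6, the peaks at chr8:1200332, chr8:159755 and chr24:41356755 became higher in replicate 1 under TMM or DESeq2 factors. Where the call was kept, the direction was not always kept. The log2 ratio of the peak at chr10:44526328 moved from -0.019 to 0.072 with TMM and 0.075 with DESeq2 factors. That of the peak at chr23:45020435 moved from -0.078 to 0.012 and 0.015. Weak peaks are limited by depth, and a median end peak held 44 and 39 counts.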
